A study of Mus musculus with 6 samples.

Results

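The 10 genes described here encode a cytosolic chaperonin, its mitochondrial counterpart and the abundant heat shock proteins of the cytosol: Tcp1, Cct2, Cct3, Cct4, Cct5, Hspd1, Hspe1, Hsp90aa1, Hsp90ab1 and Hspa8. They were chosen by name, with earlier results of these data known. All 10 were found among the 49671 genes of the count table and among the 15197 genes tested. The cells were primary pancreatic stellate cells (PSCs), the resident fibroblast-like cells of the pancreas, from C57BL6/J WT mice. They were grown on plastic in serum-containing medium for 120 h at an extracellular pH of 6.6 (pHe6.6) or 7.4 (pHe7.4), which was set by the amount of sodium bicarbonate, and poly(A) RNA was sequenced from 3 biological replicates (A, B and C) of each group to ask how extracellular pH shapes their expression. The groups therefore differ in bicarbonate as well as in pH, and the effects of pH and of bicarbonate cannot be told apart. By the study's definition a biological replicate is a mouse. Whether a mouse gave cultures to both groups is not stated in the labels.

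Molecular chaperones bind proteins that are not yet folded or have lost their fold. CCT (also TRiC) is a chamber built from 8 different subunits, each encoded by its own gene, and it folds actin, tubulin and other cytosolic proteins. HSP60 (Hspd1) forms the corresponding chamber of the mitochondrial matrix and is closed by its lid HSP10 (Hspe1). HSC70 (Hspa8) is the constitutive member of the HSP70 family and binds short hydrophobic stretches of new proteins, whereas HSP90 acts late, on kinases, steroid receptors and other clients, through an inducible (Hsp90aa1) and a constitutive form (Hsp90ab1). Stress raises many of these genes through heat shock factor 1, which binds heat shock elements, that is, inverted repeats of the units GAA and TTC. Fibroblast-like cells that proliferate or take on a contractile phenotype make much actin, tubulin and matrix protein.

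Promoter windows from RefSeq (GRCm38.p6, 250 bases before to 50 after a start) were found by symbol for 6 of the 10 genes, in 9 windows, and were searched on both strands for heat shock type repeats. GAANNTTC was found in 7.86% and TTCNNGAA in 8.52% of all 32851 windows, and 3 alternating units (GAANNTTCNNGAA or TTCNNGAANNTTC, which contain both shorter motifs) in 0.603%. Hspd1 and Hspe1 lie head to head on chromosome 1, with the Hspe1 start 216 bases from the downstream Hspd1 start, and this interval held a run of 18 bases with alternating TTC and GAA units. Cct2, next to an internal start, and Cct5 held a shorter match each. These matches are printed here because no other window of the 6 genes held any, each as 30 bases on the strand of the named gene with the matching run in capitals.
Hspd1: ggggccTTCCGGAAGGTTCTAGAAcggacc
Cct2: ccccaagtgaaGAAGTTTCtagcaggacct
Cct5: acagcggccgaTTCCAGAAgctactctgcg
The Hspd1 site was at chr1:55088053-55088082 (minus strand), with its run 127 bases before the downstream Hspd1 start and 72 bases before that of Hspe1. In GENCODE vM21 it falls inside the untranslated first exon of a longer Hspd1 transcript (Hspd1-202). The Cct2 site was at chr10:117063399-117063428 and the Cct5 site at chr15:31601862-31601891, both on the minus strand, 35 and 27 bases before a start. The Cct2 site lies outside annotated exons, and the Cct5 site lies in an exon of the head-to-head neighbour Fam173b. The windows of Cct3 and Tcp1 had no match. Of other motifs searched, CACGTG (7.15% of all windows) was present in the window of the upstream Hspd1 start, and CCAAT or ATTGG (37.4% of all windows) in windows of Hspd1, Cct3 and Tcp1. A match describes letters only and shows neither binding nor a cause.

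The libraries held 28904761 to 38331877 counts. The label of the cells was checked against their markers. Collagen and other fibroblast transcripts were high in every library, with a summed level of 37081 to 48576 CPM (counts scaled to a library of 1000000), but the 9 fibroblast and stellate markers tested moved in both directions, with 1 higher and 4 lower at pHe7.4. Col1a1, a collagen chain, was higher by 0.97 on the log2 scale (adjusted p = 0.00233), whereas the proteoglycan Dcn fell by 1.62, Pdgfra by 1.06 and Pdgfrb by 0.65. Des, an intermediate filament of stellate cells, was at 107 to 153 CPM at pHe6.6 and at 63.1 to 97.4 CPM at pHe7.4, without overlap (log2 fold change −0.68, adjusted p = 0.0335). Acta2 encodes the smooth muscle actin whose protein the study used as its myofibroblast readout. It was at 746 to 1371 CPM at pHe6.6 and at 1374 to 1626 CPM at pHe7.4. The groups did not overlap, but Acta2 did not pass (log2 fold change 0.55 ± 0.21, SE, adjusted p = 0.067). Lrat, which stores retinoid in quiescent stellate cells, was at 0 to 3 counts per library. Markers of other cells differed between the groups. The summed level of 11 mesothelial markers was 155 to 508 CPM at pHe6.6 and 1304 to 1400 CPM at pHe7.4 (8 of 11 higher at pHe7.4), and that of 5 endothelial markers was 6.00 to 18.0 against 37.0 to 50.2 CPM (5 of 5 higher). The 10 macrophage markers summed to 559 to 1048 against 507 to 777 CPM (3 of 10 lower at pHe7.4), and 7 acinar markers to 11.2 to 25.1 against 4.23 to 56.2 CPM (none called), with Amy2a2 at 0 in all libraries. Replicate C at pHe6.6 had 296 counts over 4 B cell markers, and the other libraries had at most 7. The part of these cells in the results below was not tested. In such bulk samples, more cells of a type and more RNA per cell cannot be told apart.

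Most of the 10 transcripts were higher at pHe7.4. Between the groups, 8 of the 10 genes passed the test as higher at pHe7.4, none as lower, and Cct4 and Hspa8 did not pass (edgeR's quasi-likelihood test, Benjamini-Hochberg adjusted p under 0.05 over all genes tested). Of all genes tested, 25.9% were called higher at pHe7.4 and 26.4% lower, 52.3% in all. The median log2 fold change of the 10 genes was 0.30, with a range of −0.08 to 0.56, against 0.01 over all genes. All changes were small. None of the 10 genes passed the adjusted p together with an absolute log2 fold change over 0.58, which 29.8% of all genes did. For 9 of the 10 genes every pHe7.4 library was above every pHe6.6 library, as it was for 31.7% of all genes, and Hspa8 was the exception. Without replicate A or without replicate C at pHe6.6, 5 of the 10 genes were called, since Tcp1, Cct5 and Hsp90ab1 no longer passed. Calls over all genes also fell, from 7955 to 7009 and 6273. Scaled by library totals alone, which moved the median of all genes by 0.17 on the log2 scale and the share of higher genes among all calls from 49.5% to 67.8%, 9 were called.

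**Figure D1:**
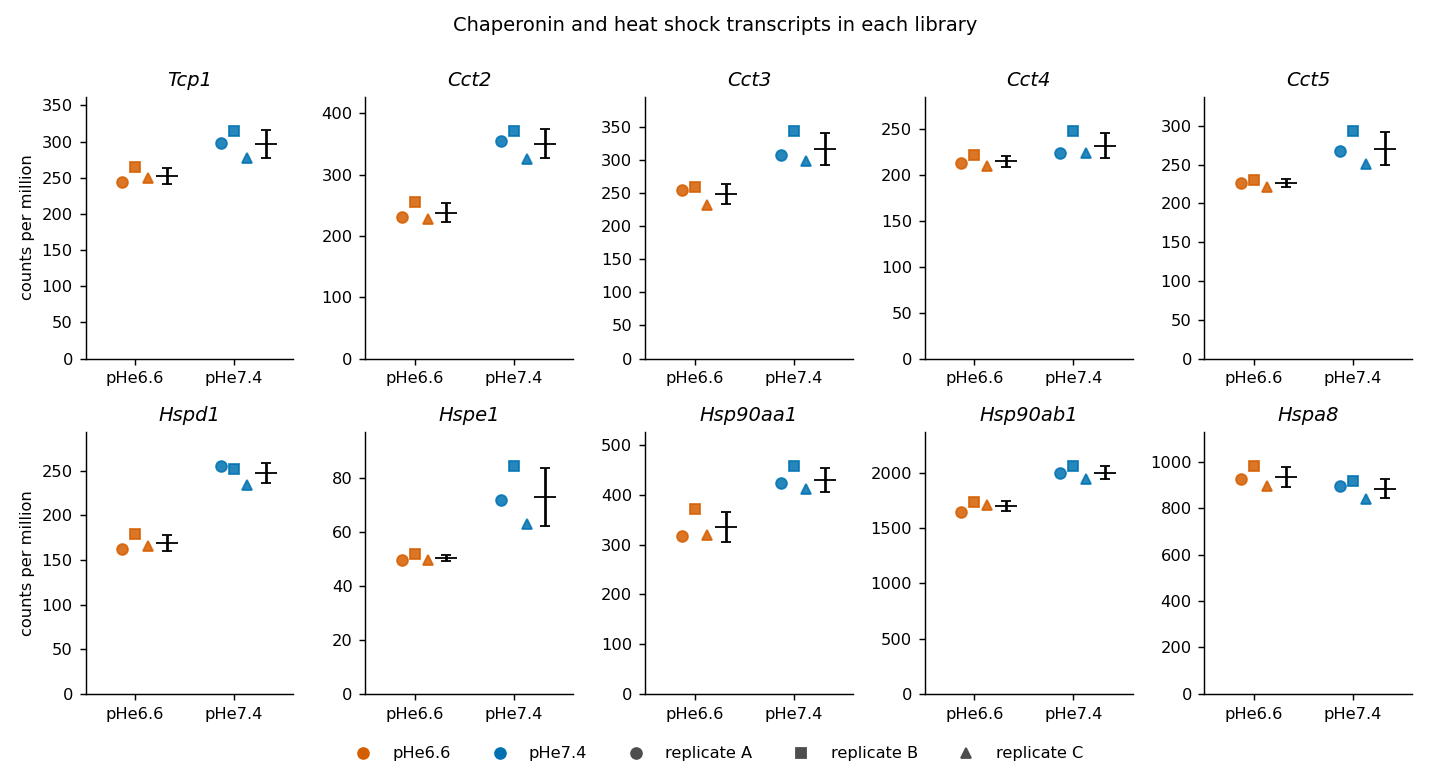
Level of each gene in CPM (linear axis from 0) in the 6 libraries, with the mean ± SD of the 3 replicates of each group in black. Every pHe7.4 library was above every pHe6.6 library for 9 genes, and the groups overlapped for Hspa8.

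The libraries of a group kept a similar order over the genes. Replicate B was the highest pHe6.6 library for 10 of 10 genes and the highest pHe7.4 library for 9 of 10, with Hspd1 as the exception. Replicate C was the lowest pHe7.4 library for 10 of 10. Together the 10 genes took 0.395% to 0.430% of all counts at pHe6.6 and 0.516% to 0.582% at pHe7.4. These are shares of raw library totals. With the scaling used in the test, the 10 genes summed to 4267 to 4549 CPM at pHe6.6 and 4869 to 5344 CPM at pHe7.4, a relatively smaller rise. Per kilobase of exon and averaged over the libraries, Hsp90ab1 was highest, on rank 36 of 15197 genes, followed by Hspa8 on rank 98. The other 8 genes lay between rank 362 (Cct2) and rank 728 (Hspe1). At pHe6.6 the order of these 8, in CPM per kilobase, was Cct5 (122 ± 2.60, SD, n = 3), Cct2 (116 ± 7.63), Cct3 (109 ± 6.52), Hsp90aa1 (99.5 ± 8.92), Tcp1 (88.4 ± 3.76), Cct4 (86.5 ± 2.35), Hspd1 (69.7 ± 3.74) and Hspe1 (65.0 ± 1.51). Neighbours overlapped from Cct5 to Hsp90aa1 and between Tcp1 and Cct4. At pHe7.4 Cct2 led these 8 with 171 ± 11.2 CPM per kilobase, above Cct5 with 146 ± 11.7. Their ranges barely separated, with the lowest Cct2 library at 158.7 and the highest Cct5 library at 158.4. The lowest means were those of Hspe1 (94.2 ± 14.0) and Cct4 (93.4 ± 5.63), which overlapped.

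Among the 5 CCT subunits of the list, Cct2 had the largest fold change. Cct2 (ENSMUSG00000034024, chr10:117051001-117063814, minus strand) encodes CCT-beta. Its pHe6.6 libraries were at 230 (A), 256 (B) and 227 CPM (C), and its pHe7.4 libraries, in the same order, at 355, 371 and 326 CPM. The lowest pHe7.4 library thus exceeded the highest pHe6.6 library by 70.1 CPM, and the log2 fold change was 0.56 ± 0.08 (SE, n = 3 per group, adjusted p = 0.000883). Cct3 (ENSMUSG00000001416, chr3:88297116-88321767, plus strand), which encodes CCT-gamma, was at 254, 260 and 232 CPM at pHe6.6 and at 307, 345 and 300 CPM at pHe7.4. The groups did not overlap, and the log2 fold change was 0.35 ± 0.08 (adjusted p = 0.00828).

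Cct5 (CCT-epsilon, ENSMUSG00000022234, chr15:31590800-31601804, minus strand) was at 226, 231 and 221 CPM at pHe6.6 and at 267, 294 and 251 CPM at pHe7.4. The groups did not overlap, and the coefficient of variation was 8.01% at pHe7.4 against 2.14% at pHe6.6. The log2 fold change was 0.26 ± 0.07 (adjusted p = 0.0204), but the call was lost without replicate A (adjusted p = 0.0553) or replicate C (0.0802) at pHe6.6. Tcp1 (CCT-alpha, ENSMUSG00000068039, chr17:12915701-12925067, plus strand), after which the complex was first named, was at 244, 265 and 249 CPM at pHe6.6 and at 298, 315 and 277 CPM at pHe7.4. These groups were separated by 12.5 CPM only. Its log2 fold change was 0.23 ± 0.07 (adjusted p = 0.0287) and did not pass without pHe6.6 replicate A (0.0983) or C (0.104) or without pHe7.4 replicate A (0.0715) or B (0.0554).

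Cct4 (CCT-delta, ENSMUSG00000007739, chr11:22990519-23003780, plus strand) was at 213, 221 and 210 CPM at pHe6.6 and at 224, 248 and 224 CPM at pHe7.4. The groups were 2.47 CPM apart, and the log2 fold change of 0.11 ± 0.07 did not pass (adjusted p = 0.195). Its 95% confidence interval was −0.04 to 0.27, so a change of the size seen in Tcp1 or Cct5 lies within it. Scaled by library totals alone, the log2 fold change of Cct4 was 0.29 and passed. Of the remaining subunits, Cct6a (CCT-zeta) was higher at pHe7.4, with 179, 189 and 182 CPM against 259, 266 and 241 CPM (log2 fold change 0.48 ± 0.06, adjusted p = 0.000695). Cct7 (CCT-eta) and Cct8 (CCT-theta) had log2 fold changes of 0.11 and 0.17 and did not pass (adjusted p = 0.262 and 0.0595), and Cct6b, a testis form, was under the minimum level. Thus 5 of the 8 subunits tested were called higher and none lower, where 25.9% of all genes were higher. Without replicate A or without replicate C at pHe6.6 the count was 3, and it was 8 with scaling by library totals alone.

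**Figure D2:**
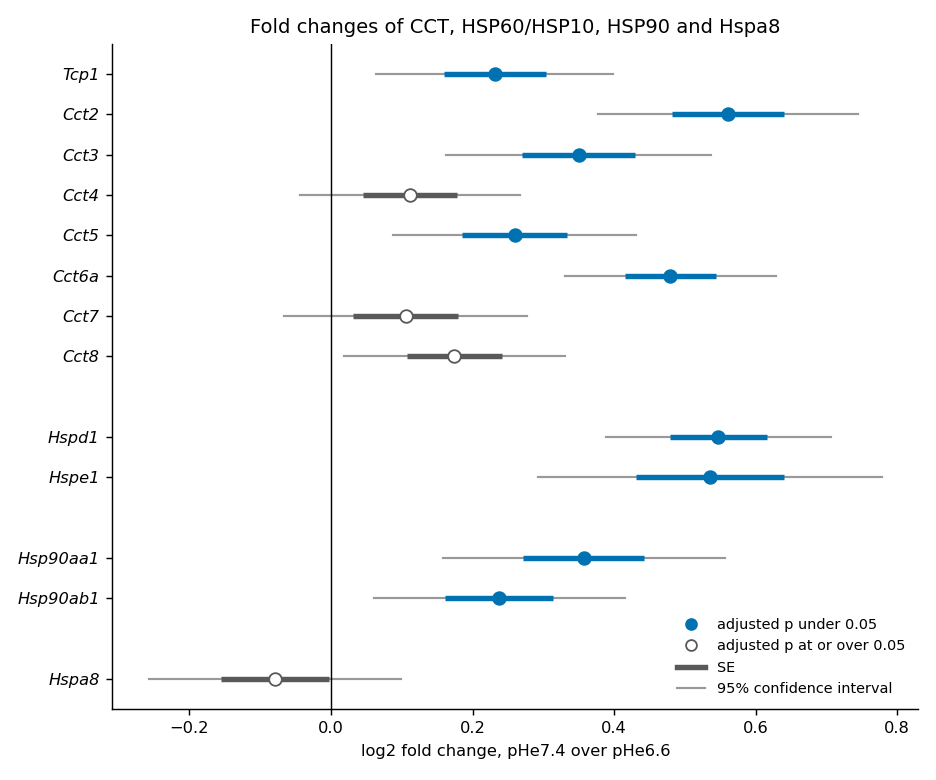
Log2 fold change of pHe7.4 over pHe6.6 (edgeR, n = 3 per group) for the 8 CCT subunits tested, the mitochondrial chaperonin, HSP90 and Hspa8. Thick lines are SE, thin lines 95% confidence intervals, and filled points passed an adjusted p of 0.05. Cct2, Hspd1 and Hspe1 had the largest values, from 0.54 to 0.56, and Hspa8 alone was below 0, at −0.08.

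Since each chamber holds every subunit, the balance of the 8 subunit transcripts was also compared within each library. It was taken as the share of each transcript in the summed CPM per kilobase of the 8 genes. These are shares of RNA, not of protein in the ring, and they depend on the exon lengths used. Equal transcript levels would give 12.5% each. The share of Cct2 was 14.0%, 14.7% and 14.1% at pHe6.6 and 17.5%, 17.0% and 17.0% at pHe7.4. Cct6a, the lowest subunit in each pHe6.6 library, had a mean share of 9.19% ± 0.17 (SD, n = 3) there and of 10.5% ± 0.24 at pHe7.4. These were the subunits whose share was higher at pHe7.4 without overlap.

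The shares of Cct7 (14.5% ± 0.07 against 12.7% ± 0.09), Cct4 (10.6% ± 0.12 against 9.40% ± 0.24), Cct8 (12.1% ± 0.09 against 11.1% ± 0.15) and Tcp1 (10.9% ± 0.21 against 10.4% ± 0.11) were lower at pHe7.4 without overlap. Those of Cct3 and Cct5 overlapped between the groups. Cct4 was the lowest subunit in each pHe7.4 library. The highest subunit exceeded the lowest by 1.61 to 1.68 times at pHe6.6 and by 1.76 to 1.91 times at pHe7.4, so that the 8 transcripts were less even at pHe7.4 in every library. The shares of a library sum to 100%, so a rise of some brings a fall of others, and they were chosen for description after the fold changes were known and were not tested.

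**Figure D3:**
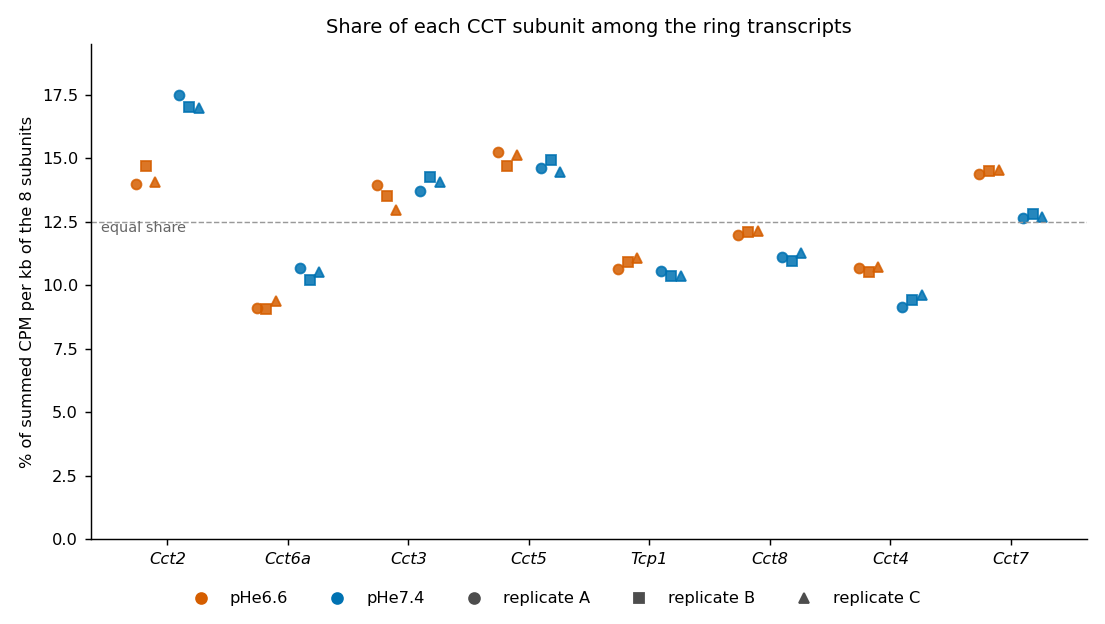
Share of each CCT subunit in the summed CPM per kilobase of the 8 subunits (%), in each of the 6 libraries, ordered by the difference between the groups. The dashed line marks an equal share of 12.5%. Cct2 lay at 14.0% to 14.7% at pHe6.6 and at 17.0% to 17.5% at pHe7.4, whereas Cct7 lay lower at pHe7.4.

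The mitochondrial chaperonin and its lid were both called higher at pHe7.4. Hspd1 (ENSMUSG00000025980, chr1:55077835-55088243, minus strand) was at 162, 179 and 166 CPM at pHe6.6 and at 255, 251 and 234 CPM at pHe7.4. The groups were 54.8 CPM apart, and the log2 fold change was 0.55 ± 0.07 (adjusted p = 0.000507), the smallest adjusted p of the 10 genes. Hspe1 (ENSMUSG00000073676, chr1:55088132-55091307, plus strand) was at 49.7, 51.7 and 49.6 CPM at pHe6.6 and at 71.7, 84.3 and 62.8 CPM at pHe7.4. Its pHe7.4 libraries were the most spread of all 10 genes, with a coefficient of variation of 14.8% against 2.33% at pHe6.6, but did not reach the pHe6.6 range. The log2 fold change was 0.54 ± 0.10 (adjusted p = 0.00399).

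Within each library, Hspe1 had 30.7%, 28.8% and 29.9% of the counts of Hspd1 at pHe6.6 and 28.1%, 33.5% and 26.9% at pHe7.4. The groups overlapped, and the log2 ratio differed by −0.02 (exact two-sided permutation test, p = 0.9, adjusted over 3 ratios 0.9). Leaving out replicate A or C at pHe7.4 turned the sign of this difference, to 0.01 and 0.04. The annotated exons of the 2 genes overlap on opposite strands over 112 bases (chr1:55088132-55088243), and the strand setting of the counting is not given in the sources used here. A processed copy, Hspd1-ps3, had 383 to 459 counts at pHe6.6 and 619 to 831 at pHe7.4, at most 8.24% of Hspd1 in any library. Reads of such near-identical copies can be split between them and their parent. Tcp1 also shares exonic bases with neighbours on the other strand, 141 with Mrpl18 and 571 with Acat3, which had at most 9.71% and 1.76% of its counts.

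Both cytosolic HSP90 genes were called higher at pHe7.4. The inducible Hsp90aa1 (ENSMUSG00000021270, chr12:110690605-110702728, minus strand) was at 318, 371 and 320 CPM at pHe6.6 and at 424, 458 and 411 CPM at pHe7.4. The groups were 40.1 CPM apart, and the log2 fold change was 0.36 ± 0.09 (adjusted p = 0.00992). The constitutive Hsp90ab1 (ENSMUSG00000023944, chr17:45567775-45573271, minus strand) was at 1645, 1734 and 1707 CPM at pHe6.6 and at 1993, 2059 and 1945 CPM at pHe7.4.

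The Hsp90ab1 libraries were tight, with coefficients of variation of 2.70% and 2.86%, and the groups were 211 CPM apart. Its log2 fold change of 0.24 ± 0.08 passed (adjusted p = 0.0322), but not without replicate A (0.107) or C (0.0977) at pHe6.6, nor without replicate A (0.0795), B (0.057) or C (0.065) at pHe7.4. Per kilobase of exon, Hsp90ab1 was at 673 ± 18.2 CPM (SD, n = 3) at pHe6.6 and Hsp90aa1 at 99.5 ± 8.92 CPM. The counts of Hsp90aa1 were 18.8% to 21.4% of those of Hsp90ab1 at pHe6.6 and 21.1% to 22.2% at pHe7.4. These ranges overlapped, and the log2 ratio differed by 0.12 (exact two-sided permutation test, p = 0.3, adjusted 0.45).

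Hspa8 (HSC70, ENSMUSG00000015656, chr9:40800984-40810087, plus strand) was the only one of the 10 genes whose groups overlapped, and it did not pass the test. It was at 925, 981 and 896 CPM at pHe6.6 and at 895, 918 and 839 CPM at pHe7.4. The log2 fold change was −0.08 ± 0.08 (adjusted p = 0.410), with a 95% confidence interval of −0.26 to 0.10, and its sign turned when libraries were scaled by their totals alone (0.09). The interval lies below the log2 fold changes of all the other genes of the list, of which that of Cct4 was nearest (0.11). It overlaps the intervals of Cct4, Tcp1, Cct5 and Hsp90ab1.

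The inducible HSP70 genes Hspa1a and Hspa1b, which share most of their sequence and whose reads may be split between them, were set against Hspa8 within each library. Their summed counts were 4.78%, 4.52% and 4.96% of those of Hspa8 at pHe6.6 and 6.56%, 8.27% and 6.35% at pHe7.4. Every pHe7.4 library was above every pHe6.6 library, and the log2 ratio differed by 0.56. This gave p = 0.1 in the exact two-sided permutation test (adjusted 0.3), the smallest value that 3 against 3 libraries allow, so no such ratio could pass. Taken singly, Hspa1b was at 37.5 to 38.4 CPM at pHe6.6 and at 48.2 to 69.3 CPM at pHe7.4 (log2 fold change 0.59 ± 0.13, adjusted p = 0.00698), and Hspa1a was at 5.88 to 6.96 and 5.06 to 6.58 CPM and did not pass.

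**Figure D4:**
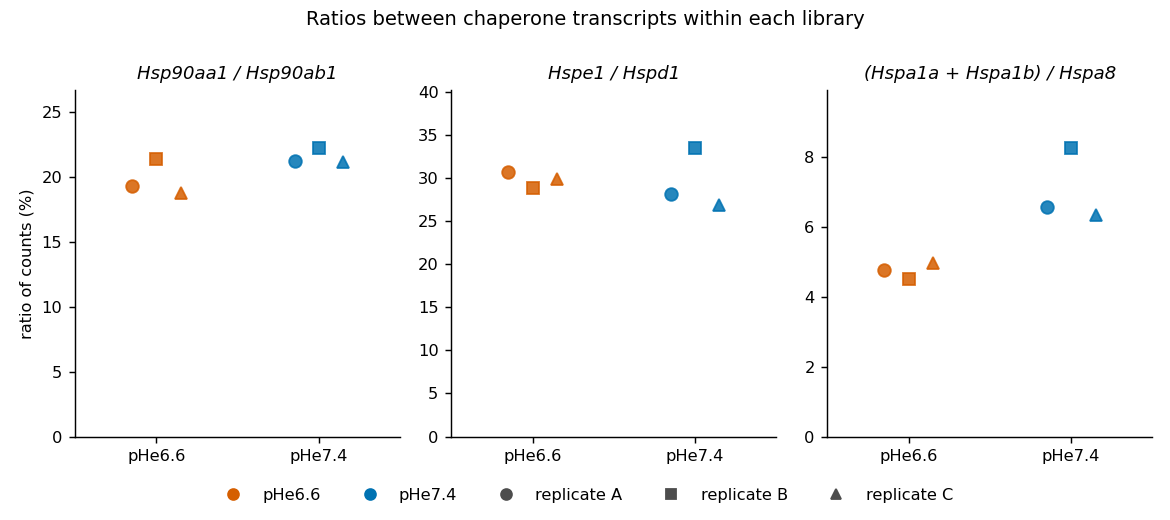
Ratio of counts between chaperone transcripts within each library (%), for Hsp90aa1 over Hsp90ab1, Hspe1 over Hspd1, and the sum of Hspa1a and Hspa1b over Hspa8. The groups overlapped for the HSP90 forms and for the mitochondrial pair, and the inducible HSP70 genes lay at 4.52% to 4.96% of Hspa8 at pHe6.6 and at 6.35% to 8.27% at pHe7.4.

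Other genes of the folding machinery were found in both directions. Of 85 further chaperone genes in 9 lists, 79 were tested, of which 23 (29.1%) were higher at pHe7.4 and 14 (17.7%) lower, with a median log2 fold change of 0.12. The corresponding shares of all genes were 25.9% and 26.4%. No list was tested against the others. Scaling by library totals alone shifted most lists towards higher calls, and its counts are given where the split moved most. Among 12 subunits of prefoldin, which hands actin and tubulin to CCT, and other CCT cofactors, 4 were higher and 1 lower (7 and 0 with library totals alone). Pdcl3, a phosducin-like cofactor of CCT, rose from 66.2 to 73.5 CPM at pHe6.6 to 89.8 to 98.5 CPM at pHe7.4 (log2 fold change 0.46, adjusted p = 0.00114). Pdrg1, of a prefoldin-like complex, and the prefoldin subunit Pfdn1 had log2 fold changes of 0.62 and 0.54 (adjusted p = 0.00119 and 0.00137), whereas the prefoldin subunit Pfdn5 fell by 0.46 on the log2 scale (adjusted p = 0.00771), a call that was lost with library totals alone (0.0661).

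Of 10 mitochondrial chaperones and proteases, 2 were higher and 2 lower at pHe7.4. This was 20.0% in each direction, beside 25.9% and 26.4% of all genes. With library totals alone, 5 were higher and 0 lower, and the lower calls of Dnaja3 and Trap1 were lost (adjusted p = 0.193 and 0.521). Hspa9, the mitochondrial HSP70, was at 390 to 436 CPM at pHe6.6 and at 469 to 539 CPM at pHe7.4 (log2 fold change 0.30, adjusted p = 0.0171), a call that was lost without replicate A or C at pHe6.6 or replicate A at pHe7.4. Grpel2, a nucleotide exchange factor of Hspa9, was higher by 0.53 (adjusted p = 0.00916). Its J-domain partner Dnaja3 fell by 0.27 and the mitochondrial HSP90 Trap1 by 0.23 on the log2 scale (adjusted p = 0.00573 and 0.0235), and Trap1 was not called without replicate A at pHe6.6 or C at pHe7.4. Without pHe6.6 replicate A the list had 1 gene higher and 1 lower.

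Among the HSP90 cochaperones, which steer its ATPase cycle and its clients, 7 were higher and 1 was lower of 15 tested (12 and 0 with library totals alone). The shares of 46.7% and 6.67% stood beside 25.9% and 26.4% of all genes. Ppp5c, a phosphatase recruited by HSP90, was at 41.4 to 45.4 CPM at pHe6.6 and at 59.2 to 66.8 CPM at pHe7.4 (log2 fold change 0.54, adjusted p = 0.000687). Cdc37, which loads kinases, Ahsa1, which activates the HSP90 ATPase, and the immunophilin Fkbp4 had log2 fold changes of 0.36, 0.32 and 0.32. Stip1, the adaptor between HSP70 and HSP90 and the most abundant of the list, was at 269 to 276 CPM and 283 to 308 CPM and did not pass (0.13, adjusted p = 0.119). With library totals alone Stip1 passed (adjusted p = 0.00674).

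HSP70 relatives and their partners were called in both directions, as were all genes (25.9% higher and 26.4% lower). Of 10 HSP70 and HSP110 relatives tested, 4 (40.0%) were higher and 2 (20.0%) lower. Hsph1 and Hspa4, HSP110 proteins that exchange the nucleotide of HSP70, were higher by 0.40 and 0.35 on the log2 scale (adjusted p = 0.00124 and 0.0116), the latter not without pHe6.6 replicate C. Hspa2, a form best known from testis, was higher by 0.78, and Hspa12b, a distant relative known from endothelium, fell by 1.21 while the endothelial markers were higher. Of 12 J-domain cochaperones, which deliver clients to HSP70, 3 (25.0%) were higher and 3 (25.0%) lower (7 and 2 with library totals alone). Dnajc9, which also binds histones, and Dnajc2, a ribosome-bound protein, were higher by 1.01 and 0.78. Dnajb4 and Dnajb2 fell by 0.56 and 0.57, and the most abundant, Dnaja2, did not pass (0.14, adjusted p = 0.0683). Dnaja2 was called higher with DESeq2 (adjusted p = 0.0362), limma-voom (0.0348), upper-quartile factors (0.0384) and library totals alone (0.00321).

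Of 7 exchange and holding factors of HSP70, 2 (28.6%) were higher and 1 (14.3%) lower, beside 25.9% and 26.4% of all genes. With library totals alone, 4 of these factors were higher and 0 lower. Hspbp1 and Bag2 were higher by 0.56 and 0.51 on the log2 scale (adjusted p = 0.00216 and 0.0235), and Bag5 fell by 0.28 (adjusted p = 0.0275). The call of Bag5 was lost when any library other than pHe6.6 replicate B was left out. It was also lost with library totals alone (adjusted p = 0.299). Without replicate C at pHe6.6, or without replicate A or B at pHe7.4, Bag2 was lost as well and 1 gene of the list was called. The most abundant of the list, St13, did not pass (−0.05, adjusted p = 0.490), and scaling by library totals alone turned its sign.

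Small heat shock proteins, which hold unfolded proteins without ATP, included the largest absolute log2 fold changes among the chaperone genes tested, and these were lower at pHe7.4. Of 6 tested, none was higher and 3 were lower at pHe7.4 (1 and 2 with library totals alone). The median log2 fold change of the list was 0.002. The 3 that did not pass had positive log2 fold changes, 0.30 for Hspb1, 0.33 for Hspb2 and 0.18 for Cryab. Hspb7, known from heart and skeletal muscle, was at 89.5, 91.0 and 71.2 CPM at pHe6.6 and at 13.1, 10.9 and 11.7 CPM at pHe7.4 (log2 fold change −2.81 ± 0.12, adjusted p = 6.98e-06). Hspb6, known from smooth and striated muscle, was at 70.8, 64.3 and 70.9 CPM at pHe6.6 and at 21.9, 22.9 and 22.6 CPM at pHe7.4 (−1.61 ± 0.07, adjusted p = 6.79e-06).

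Hspb8 fell by 0.18 on the log2 scale (adjusted p = 0.0462), a call lost when any of the 6 libraries was left out. It was also lost with library totals alone (−0.0066, adjusted p = 0.93). Cryab (alpha-B crystallin) was the most abundant of the list, with 229 to 281 and 255 to 334 CPM, and did not pass. With library totals alone Cryab passed (adjusted p = 0.0463). Of 4 genes tested among the heat shock factors and Hsbp1, none was higher and 1 (25.0%) lower (2 and 1 with library totals alone). Of all genes, 25.9% were higher and 26.4% lower. Hsf4 was lower at pHe7.4 at a low level (4.22 to 5.16 against 2.04 to 2.35 CPM, log2 fold change −1.14, adjusted p = 0.000962). Hsf1, the main regulator of the stress response, was at 46.4 to 49.3 CPM at pHe6.6 and at 47.3 to 50.7 CPM at pHe7.4, and it did not pass (0.03 ± 0.06, adjusted p = 0.712). Its target Dnajb1, which encodes HSP40, was at 52.8 to 54.1 and 52.1 to 54.6 CPM and did not pass (adjusted p = 0.956). Of the inducible genes described above, Hspa1b and Hsp90aa1 were higher (0.59 and 0.36) and Hspa1a did not pass. These are RNA levels, and the activity of heat shock factor 1 was not tested.

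Actin and tubulin chains, the main clients of CCT, were found in both directions. Of 18, 7 (38.9%) were higher and 4 (22.2%) lower at pHe7.4, with a median log2 fold change of 0.28, beside 25.9% and 26.4% of all genes. With library totals alone 12 were higher and 1 lower. Actg2, the actin of enteric smooth muscle, was at 8.10, 17.1 and 11.1 CPM at pHe6.6 and at 83.2, 72.4 and 67.6 CPM at pHe7.4 (2.61 ± 0.27, adjusted p = 0.0005). The tubulins Tubb3, Tubb2b and Tuba1c were higher by 1.21, 0.85 and 0.85. The 4 lower chains were the tubulins Tubb4a, Tubb2a, Tuba4a and Tubb4b, which fell by 0.96, 0.41, 0.36 and 0.25 on the log2 scale. Actb, the most abundant chain, was at 4405 to 5398 and 5313 to 5551 CPM and did not pass (0.13, adjusted p = 0.340). With library totals alone Actb passed (adjusted p = 0.0466).

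Proliferation markers were higher in the same libraries, and by more. All 8 were higher at pHe7.4 with a median log2 fold change of 1.27, and their summed level was 342 to 430 CPM at pHe6.6 and 872 to 893 CPM at pHe7.4. The mitotic regulators Birc5 and Ccnb1 were higher by 1.82 and 1.95, the topoisomerase Top2a by 1.24 and the replicative helicase subunit Mcm2 by 0.99 on the log2 scale. Pcna was higher by 0.46 (adjusted p = 0.00332), less than Cct2, Hspd1 and Hspe1. The part of proliferation in the chaperone results was not tested.

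**Figure D5:**
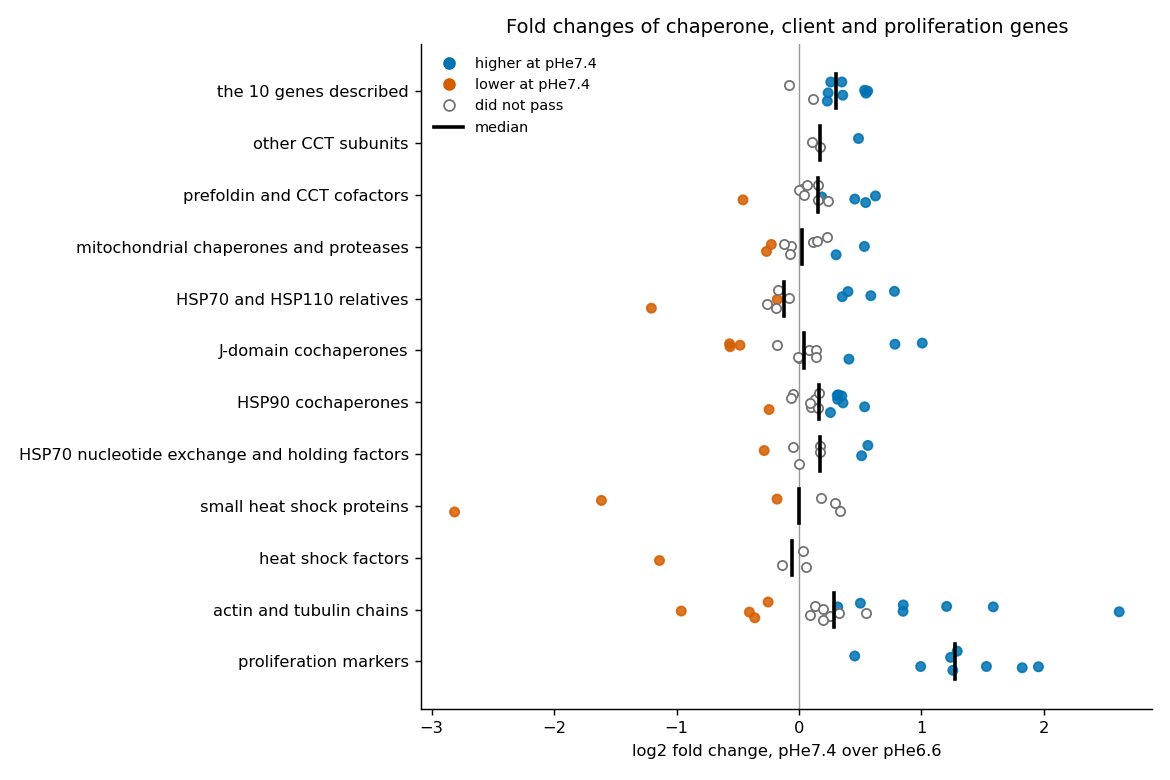
Log2 fold change of pHe7.4 over pHe6.6 for every tested gene of each list, with filled points for genes past an adjusted p of 0.05 and a black line for the median of the list; the vertical spread within a list only separates points. The 10 genes lay between −0.08 and 0.56, the small heat shock proteins reached −2.81, and all 8 proliferation markers were higher at pHe7.4.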

How the data were processed

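RNA from 6 cultures (3 per group) was analysed. The authors aligned the reads to mm10 (HISAT2 2.2.1) and obtained gene counts with featureCounts 2.0.1. The annotation and strand setting are not given in the sources used here, although the kit keeps strand. The deposited table used here has raw, unscaled counts by Ensembl identifier. A second deposited table, the comparison by the authors (limma 3.50.1), has columns of log2 fold change, mean log2 expression, score and p-value; it was used only to pair gene names with identifiers, and its values were not used.

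Counts were tested in R 4.3.3 with edgeR 4.0.16 (TMM factors 0.927 to 1.09, robust quasi-likelihood test, no covariate) where a gene reached 0.5 CPM in 2 or more libraries (15197 genes, at least 99.9% of counts). The Benjamini-Hochberg adjustment covered all of these genes, with a threshold of 0.05. Fold changes are pHe7.4 over pHe6.6. A single count corresponded to 0.0252 to 0.0339 CPM, with a common biological coefficient of variation of 0.140. Confidence intervals are those of the fit. Pairs of replicates differed by more than sampling noise (chi-square per degree of freedom 15.2 to 49.5). Levels per kilobase used merged exons of protein-coding transcripts in GENCODE vM21 (GRCm38, the assembly of mm10). Ratios used counts plus 0.5 and an exact permutation test (scipy 1.17.1). Alternatives were other scalings, filters, tests and fold thresholds (DESeq2 1.42.0, limma 3.58.1), a replicate block, and leaving out each library.

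The 10 genes and all lists were chosen with earlier results of these data known. From each other list the text names up to 4 called genes, those of smallest adjusted p, plus the gene with the highest mean level. Cct8, Hspa1a, Hspb1, Hspb2, Hsf1, Dnajb1, Pcna and the lower tubulins were chosen after their values were seen. So were the fibroblast markers, the neighbours with shared exons and the ring shares.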

Additional observations from a re-analysis of the deposited data

How the results depend on the processing

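Of the 10 genes, 8 were called with DESeq2's size factors, upper-quartile factors, edgeR's own filter, DESeq2, limma-voom with sample weights and a replicate block, 9 with library totals only (Cct4 0.29 passed, Hspa8 turned to 0.095, and St13 to 0.12) and 6 without a filter (Tcp1 0.22 and Hsp90ab1 0.22 did not pass). Against a fold threshold, by glmTreat or by an absolute log2 fold change over 0.58, 0 of the 10 passed with unchanged values (Tcp1 0.23, Cct2 0.56, Cct3 0.35, Cct5 0.26, Hspd1 0.55, Hspe1 0.54, Hsp90aa1 0.36, Hsp90ab1 0.24), and 2333 and 4522 of all genes did, against 7955 called. Leaving out 1 library gave 5 to 8 calls among the 10 and 6273 to 7764 over all genes. The log2 fold changes were then 0.19 to 0.28 for Tcp1, 0.20 to 0.31 for Cct5 and 0.21 to 0.26 for Hsp90ab1. The log2 ratio of Hspe1 to Hspd1 differed by −0.12 to 0.043 (0.0095 without pHe7.4 replicate A, 0.043 without replicate C). Hsbp1, a binding protein of heat shock factor 1, was at 0.06 and turned to −0.0084 without pHe7.4 replicate B. In these leave-outs fewer libraries were tested; the causes of the other differences were not tested.

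The replicate letters gave no clear pairing of the libraries. Deviations from the group means correlated across genes by −0.06 (A), −0.00037 (B) and 0.23 (C) for same-letter libraries. Libraries of different letters correlated by −0.18 to 0.17. Such values cannot decide whether a mouse gave cultures to both groups. With the letter as a replicate block, 7408 of all genes and 8 of the 10 were called, and no call among the 10 changed. Of the small heat shock proteins, 1 was then higher (Hspb1) and 3 lower, and without a filter 1 was higher and 2 were lower. Of the 8 CCT subunits, 6 were called with DESeq2, upper-quartile factors or limma-voom, and 3 to 6 when a library was left out. Log2 fold changes of the size seen for Cct4 and Cct7 (both 0.11, with standard errors of 0.07) are not resolved by 3 libraries per group with this spread between replicates.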
